A study of Arabidopsis thaliana with 2 samples.

Results

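The 8 genes described here are markers of mitochondrial and oxidative stress in Arabidopsis thaliana: UPOX (AT2G21640), the GNAT acetyltransferases AT2G32020 and AT2G32030, the methyltransferase-like gene AT2G41380, the TolB-like gene AT4G01870, the short-chain dehydrogenase AT4G13180, the zinc finger factor ZAT7 (AT3G46090) and the methionine sulfoxide reductase MSRB9 (AT4G21850). They were taken as every probe set that the platform annotation gives to exactly 1 of these genes. This yielded 9 probe sets, 2 of them for ZAT7, for 8 of the 3592 genes named in this way. The genes had been picked with their ratios on these arrays already known, so the ratios below are a description and were not tested.

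The arrays hold RNA from rosette leaves of Col-0 plants at growth stage 3.5, in a series about nitric oxide, a gaseous signal in plants. The plants were kept on compost at 22 °C with 24 h of light. For both pools the labels also give 1 week of stratification at 4 °C. A pool coded NOT was hybridised to 1 array and a pool coded WDC to another, so n = 1 in each group and no difference has a replicate check. The label of the NOT sample says that a sample combines 4 experiments of about 8 leaves each, and the design text counts 8 plants. The sample titles are the only source of the group codes, no label says which pool was exposed to what, and each ratio is therefore NOT over WDC without calling either a treatment. The labels name no mutation or transgene for either pool, and they speak of seedlings in the extraction step but rosette leaves as the tissue. All 4 named genes of 16 listed leaf markers gave signals of at least 304.1 on both arrays, with log2(NOT/WDC) from -0.30 to 0.03. None of the 13 listed markers of root, flower, pollen or seed had a named probe set, so other organs were not checked.

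When mitochondria are disturbed, for example when electron transport is blocked or reactive oxygen builds up, plant cells change the transcription of nuclear genes, a route known as mitochondrial retrograde signalling. UPOX encodes a mitochondrial protein that is a widely used readout of this route and of oxidative stress in general. Transcripts of many detoxifying and redox enzymes rise in the same conditions, and methionine sulfoxide reductases repair proteins whose methionine residues have been oxidised. In leaf RNA, fewer cells with a transcript and less transcript per cell cannot be told apart.

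All 8 genes had lower signals in NOT than in WDC. A ratio was taken only where both signals lay above a floor of 12.5, the 40th percentile of all signals, which 6 genes met and 2 did not. The 6 were 3.40-fold to 16.6-fold lower in NOT, with a median log2 ratio of -2.44 (5.44-fold), while the median over 4753 probe sets measured on both arrays was 0.00 and over 1934 named genes -0.02. With the other 2 genes set at their bounds, the median over all 8 was -1.92. All 6 were at least 2-fold lower and also at least 3-fold lower in NOT. Among all measured named genes, 2.95% were at least 2-fold lower and 1.14% at least 3-fold lower. Since the ratios themselves chose the genes, nothing is read from this contrast.

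**Figure D1:**
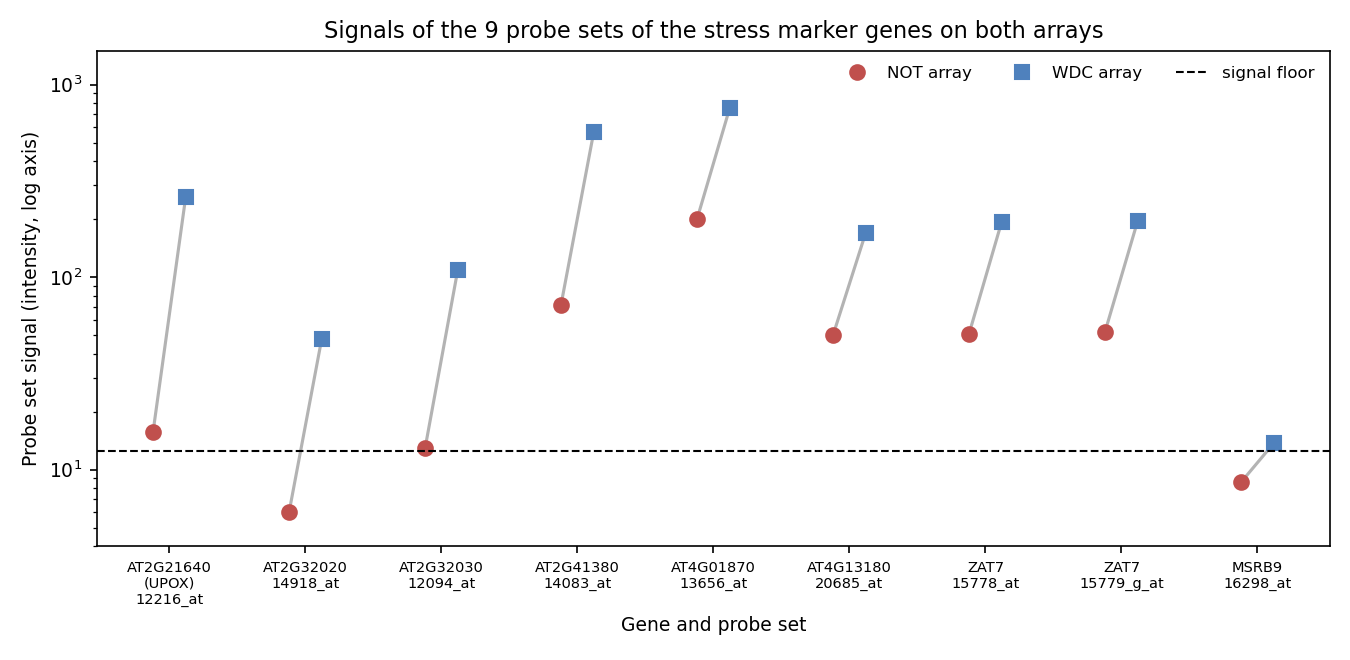
Signal of each of the 9 probe sets (intensity, log axis) on the NOT array (red circles) and on the WDC array (blue squares), 1 array per group, with the floor of 12.5 as a dashed line. The NOT signal is below the WDC signal for every probe set, and the NOT signals of AT2G32020 and MSRB9 lie under the floor.

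UPOX gave a signal of 15.7 on the NOT array, against 260.8 on the WDC array. The transcript was thus well above the floor in WDC leaves and only slightly above it in NOT leaves, where 6.02% of the WDC signal was left. The log2 ratio of -4.05 was the lowest among all 4753 measured probe sets, named or not. Its size rests on a NOT signal that is 1.26 times the floor. With 6.25 added to both signals the log2 ratio was -3.60, and with the floor raised to the 60th percentile of signals (40.1) only a bound was left, a log2 ratio of -2.70 or lower.

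AT2G32020 and AT2G32030 are direct neighbours on chromosome 2 and encode proteins of the GNAT family, whose members transfer acetyl groups to amines or proteins. AT2G32030 gave 12.9 on the NOT array, against 108.5 on the WDC array, and was 8.41-fold lower in NOT. This NOT signal is the one just inside the floor. AT2G32020 gave 6.0 on the NOT array, under the floor, and 47.7 on the WDC array, so that it was at least 3.82-fold lower in NOT. Both genes of the pair thus lay well above the floor in WDC and close to it or under it in NOT. Once the floor was lowered to the 25th percentile (4.3), AT2G32020 had a log2 ratio of -2.99, beside -3.07 for AT2G32030. This ratio of AT2G32020 rests on its NOT signal of 6.0. With the same offset as for UPOX, AT2G32030 stood at -2.58 and AT2G32020 had a bound of -1.52. With the floor at the 60th percentile only bounds were left, -1.44 for AT2G32030 and -0.25 for AT2G32020. The lowered floor was thus the only setting that gave both genes a ratio. The probe sets of both carry no mark for shared sequence, but whether the transcripts of these neighbours bind to each other's probes was not tested.

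AT2G41380, which encodes a protein of the S-adenosylmethionine-dependent methyltransferase superfamily, gave 72.0 on the NOT array, against 565.3 on the WDC array. It was 7.85-fold lower in NOT, with a log2 ratio of -2.97. Both signals lay far from the floor, at 5.76 times the floor in NOT and 45.2 times in WDC. Across the other scalings, floors and the offset its log2 ratio stayed between -3.00 and -2.83.

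AT4G01870, AT4G13180 and ZAT7 had log2 ratios close to each other, with genes outside the list lying between them and AT2G41380. AT4G01870, related to the bacterial protein TolB, gave 200.5 on the NOT array, against 755.0 on the WDC array, and was 3.77-fold lower in NOT. AT4G13180, a short-chain dehydrogenase that binds NAD(P), gave 50.0 on the NOT array, against 169.9 on the WDC array, and was 3.40-fold lower in NOT. Of the WDC signal, 26.6% was still present in NOT for AT4G01870 and 29.4% for AT4G13180, against 6.02% for UPOX.

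ZAT7, a C2H2 zinc finger factor with a repressor motif that is known from salt and oxidative stress, is the only one of the 8 genes with a pair of probe sets. One probe set gave 50.8 in NOT and 194.0 in WDC, and the other 52.1 in NOT and 196.2 in WDC. Their log2 ratios of -1.93 and -1.91 differed by 0.02. The ID of the second probe set marks it as shared, so this pair may rest on overlapping sequence. For 93 genes with more than 1 measured probe set, ratios within a gene scattered with an SD of 0.20, which describes probe noise and not variation between plants. Shared probe sets were kept in this SD, so overlapping sequence may make it too small. AT4G01870 also stood at -1.91, and its distance from ZAT7 and from AT4G13180 (-1.76) was smaller than that SD.

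MSRB9, which reduces the R form of oxidised methionine, gave 8.6 on the NOT array, against 13.7 on the WDC array. The NOT signal lay under the floor and the WDC signal just above it, which gives a bound of only 1.10-fold lower in NOT. A change of 2-fold was not detectable for this gene at this signal. With the floor at the 25th percentile its log2 ratio was -0.67. Whether MSRB9 was 2-fold lower is thus undetermined, whereas AT2G32020 passed this by its bound. Over the 383 probe sets above the floor on 1 array only, 9.92% were bounded at 2-fold lower in NOT or beyond.

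**Figure D2:**
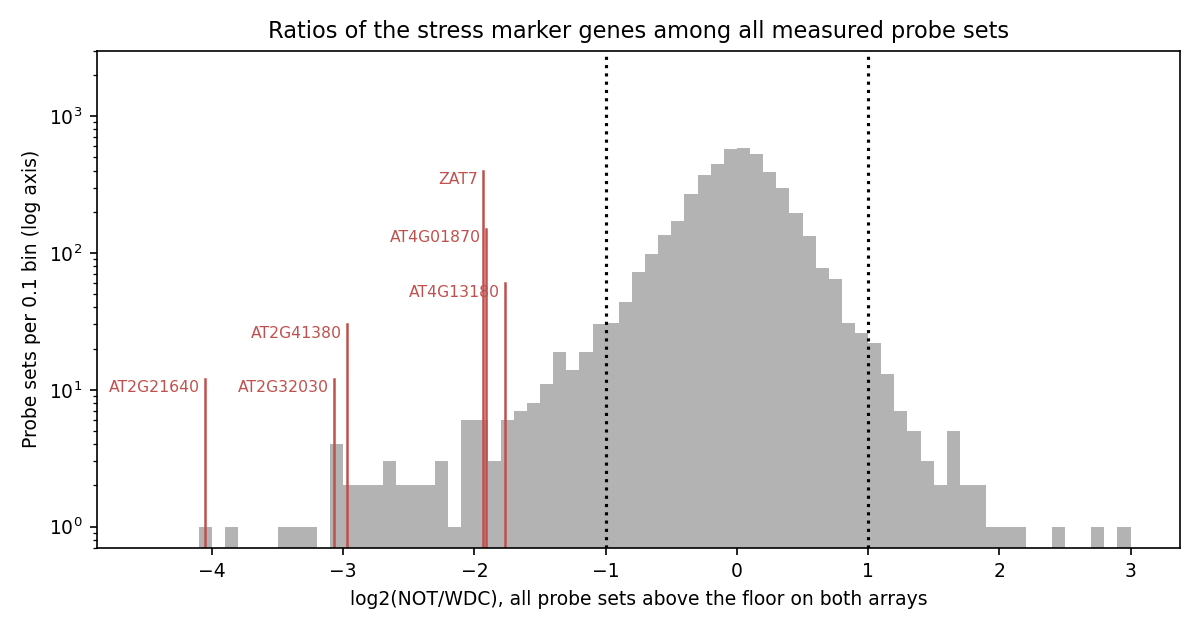
Number of probe sets per bin of 0.1 in log2(NOT/WDC) (log axis) for the 4753 probe sets above the floor on both arrays; red lines mark the 6 measured stress marker genes (1 line for ZAT7; line height has no meaning) and dotted lines the 2-fold limits. The 6 genes lie between -4.05 and -1.76, in the lower tail, while the quartiles of all probe sets are -0.24 and 0.22.

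The spread of all measured probe sets gives the scale of these values. Their central 95% ran from -1.13 to 0.82 in log2 ratio, and 3.32% were at least 2-fold lower in NOT against 1.41% at least 2-fold higher. In the range of mean signal that the 6 genes cover, 3.72% of 2689 probe sets were at least 2-fold lower. Of the 45 probe sets with a ratio as low as that of AT4G13180 or lower, 7 belonged to the stress marker genes and 25 had no gene name here. Another 12 were the brightest measured probe sets of named genes outside the list, and the naming of the last 1 was not looked up.

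In the order of named genes from the lowest ratio, UPOX stood at place 1, AT2G32030 at 3, AT2G41380 at 4, ZAT7 at 16, AT4G01870 at 17 and AT4G13180 at 18. Just above and below them were AT4G39670, which belongs to the glycolipid transfer proteins, at place 2 (log2 ratio -3.30) and AT1G23710 at place 5 (-2.89). Further such genes were AT4G27280, a protein with calcium-binding EF hands, at place 15 (-2.04) and the lactate dehydrogenase gene AT4G17260 at place 19 (-1.76). AT4G17260 was read from a shared probe set. UPOX lay 0.76 below the next gene, AT4G39670, and this gene 0.22 below AT2G32030, while each of the other genes was nearer to its neighbours in this order than the SD of 0.20 between probe sets of a gene. Among 691 genes of similar mean signal, those nearest to the median ratio of the 6 genes were AT2G32200 (-2.42), the matrix metalloproteinase AT1G24140 (-2.42), the small heat shock protein AT1G59860 (-2.55) and the isoflavone reductase-like AT1G75280 (-2.26). With 1 array per group this likeness is a nearness in a single ratio.

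Genes next to the 8 on the chromosomes were looked up as well. Of the protein-coding genes within 2 places on either side, 9 outside the list had a named probe set, 5 of them measured, and 0 of the 5 differed by 1.5-fold, against 13.8% of all measured named genes, so that this count is no result about the neighbours. Beside UPOX, RD2 (AT2G21620), a gene named for its response to desiccation, gave 1085 in NOT and 1118 in WDC (log2 ratio -0.04). RD2 was read from a shared probe set. AT2G21630, also beside UPOX, stood at 0.35. On both sides of the GNAT pair, AT2G32000 had 44.6 in NOT and 44.7 in WDC, and AT2G32040 stood at a log2 ratio of 0.10. AT4G01880, beside AT4G01870, stood at -0.10. AT2G41390, next to AT2G41380, gave 8.8 on the NOT array, against 14.2 on the WDC array, and thus a bound too small to read. AT4G13160, AT4G13190 and AT4G21865 were under the floor on both arrays.

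Other genes known from the same responses were poorly covered. In a list of 19 genes of the mitochondrial dysfunction response, which includes the alternative oxidases, UPOX was the only one measured, and the external NADH dehydrogenase NDB4 was under the floor on both arrays (0.5 in NOT and 4.7 in WDC). The label of mitochondrial stress markers could therefore not be checked on further genes of that response. Of 5 genes known to be raised by many kinds of reactive oxygen, UPOX and AT1G05340 were measured. AT1G05340, a small cysteine-rich stress protein, gave 120.7 on the NOT array, against 548.8 on the WDC array, 4.55-fold lower in NOT.

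**Figure D3:**
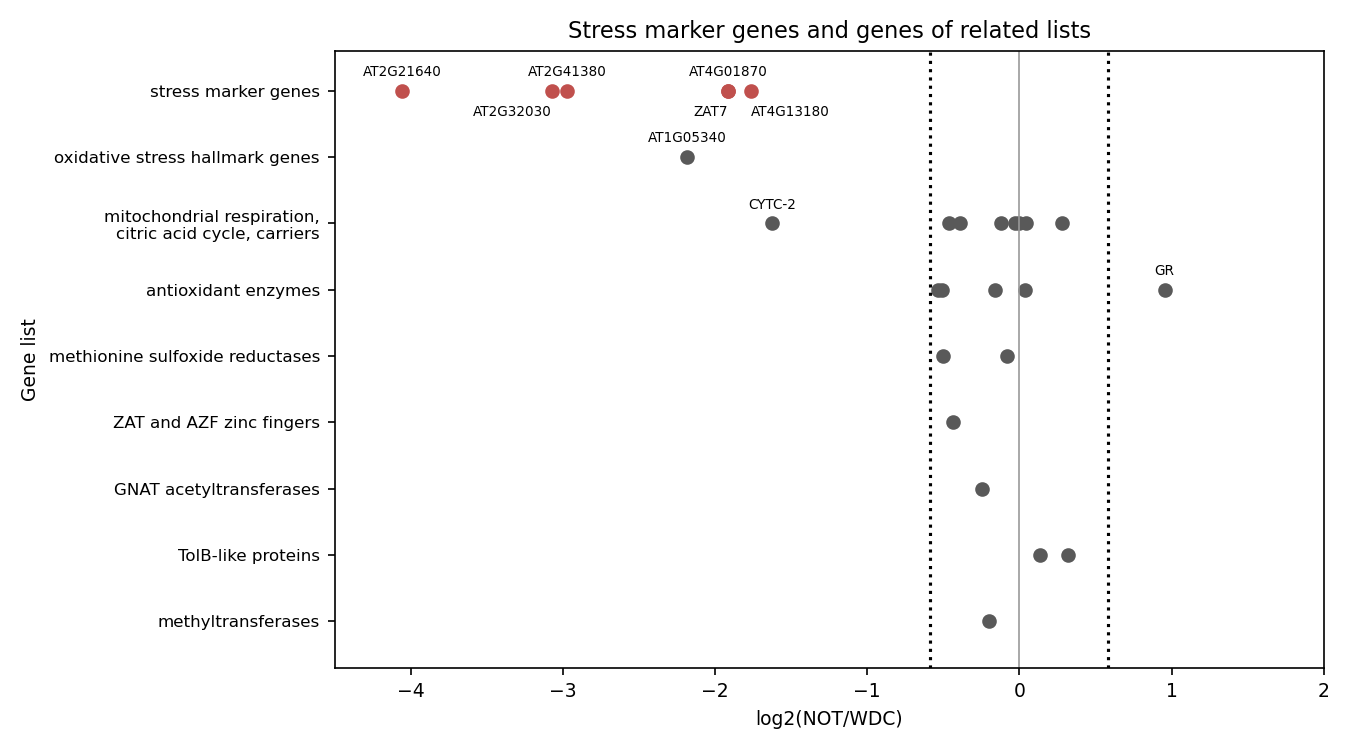
log2(NOT/WDC) of the 6 measured stress marker genes (red) and of the measured genes of related lists outside them (grey), 1 point per gene, with dotted lines at 1.5-fold. Apart from AT1G05340 and CYTC-2 on the low side and GR on the high side, the grey points lie within 1.5-fold. STZ is drawn from its brightest probe set, which is marked as shared. Its other, unmarked probe set (-0.68) lies past 1.5-fold on the low side.

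Most measured genes of mitochondrial metabolism differed by less than 1.5-fold between the arrays, as did all but 13.8% of all measured named genes. This share is therefore no result about these genes. Of 44 listed genes of respiration, the citric acid cycle, glycine decarboxylation and mitochondrial carriers, 8 were measured, with a median log2 ratio of -0.07 (0.03 with median and 0.07 with control scaling), against -0.02 for all named genes. By a 1.5-fold rule 1 was lower in NOT and 0 were higher, against 9.05% and 4.71% of all measured named genes. The lower one was CYTC-2 (AT4G10040), a gene of cytochrome c, the carrier of electrons between complexes III and IV.

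CYTC-2 gave 30.8 on the NOT array, against 95.0 on the WDC array, and was 3.08-fold lower in NOT. The other cytochrome c gene, CYTC-1 (AT1G22840), had 1328 in NOT and 1329 in WDC. The ratios of these isoform genes thus differed by more than 1.5 on the log2 scale, and under all alternatives that measured them CYTC-2 stayed between -1.63 and -1.45 and CYTC-1 between -0.07 and 0.14. Both probe sets are unmarked for shared sequence. SDH1-1, the flavoprotein of complex II, stood at -0.39, and the complex I subunit gene AT1G79010 at 0.05 (0.07 and -0.06 for its other probe sets). Of the dehydrogenase complexes, MAB1, a subunit of pyruvate dehydrogenase, stood at -0.03, and AT5G55070 and AT4G26910, both for the succinyltransferase of the oxoglutarate dehydrogenase complex, at -0.47 and 0.28. AT1G11860, the T protein of glycine decarboxylase, stood at -0.12. SDH1-2 was under the floor on both arrays.

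The 5 measured genes of enzymes that remove reactive oxygen showed no common direction. Of 37 listed genes 5 were measured, 1 past 1.5-fold on the higher side in NOT and 0 on the lower side, against 4.71% and 9.05% of all measured named genes, with a median log2 ratio of -0.16. The chloroplast ascorbate peroxidases TAPX and SAPX, which reduce hydrogen peroxide, had nearly equal signals on the arrays. TAPX, read from a shared probe set, gave 165.8 in NOT and 161.4 in WDC. SAPX gave 125.4 in NOT and 140.2 in WDC. The higher one was the glutathione reductase GR (AT3G54660), with a log2 ratio of 0.96, read from a probe set whose ID marks it as shared. Without such probe sets 2 of the 5 antioxidant genes stayed measured, 0 of them past 1.5-fold. These were SAPX and GR1, both with a lower signal in NOT, so a lack of common direction rests on shared probe sets. The other glutathione reductase, GR1 (AT3G24170), gave 201.0 on the NOT array, against 285.6 on the WDC array, with a log2 ratio of -0.51. The peroxiredoxin gene AT3G11630 stood at -0.54, also from a shared probe set.

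Relatives of the other stress marker genes were measured in part. Among 14 methionine sulfoxide reductases, MSRB5 stood at -0.50 (from a shared probe set) and MSRA5 at -0.08, and MSRB6, with 4.9 in NOT and 17.4 in WDC, had a bound of 1.39-fold lower in NOT. The zinc finger factor STZ (ZAT10), like ZAT7 of the C2H2 kind, gave 255.7 in NOT and 345.7 in WDC. Its log2 ratio was -0.44 on this probe set, which is marked as shared. On its other, unmarked probe set the log2 ratio was -0.68, past 1.5-fold lower in NOT. A further GNAT gene, AT2G39020, stood at -0.25. The TolB-like genes AT1G21670 and AT1G21680 stood at 0.32 and 0.13, beside -1.91 for AT4G01870. The methyltransferase gene AT1G55450 stood at -0.20, beside -2.97 for AT2G41380. Within each of these families the listed stress marker gene with a ratio had the lowest ratio of those measured, but it had been chosen on these arrays.

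**Figure D4:**
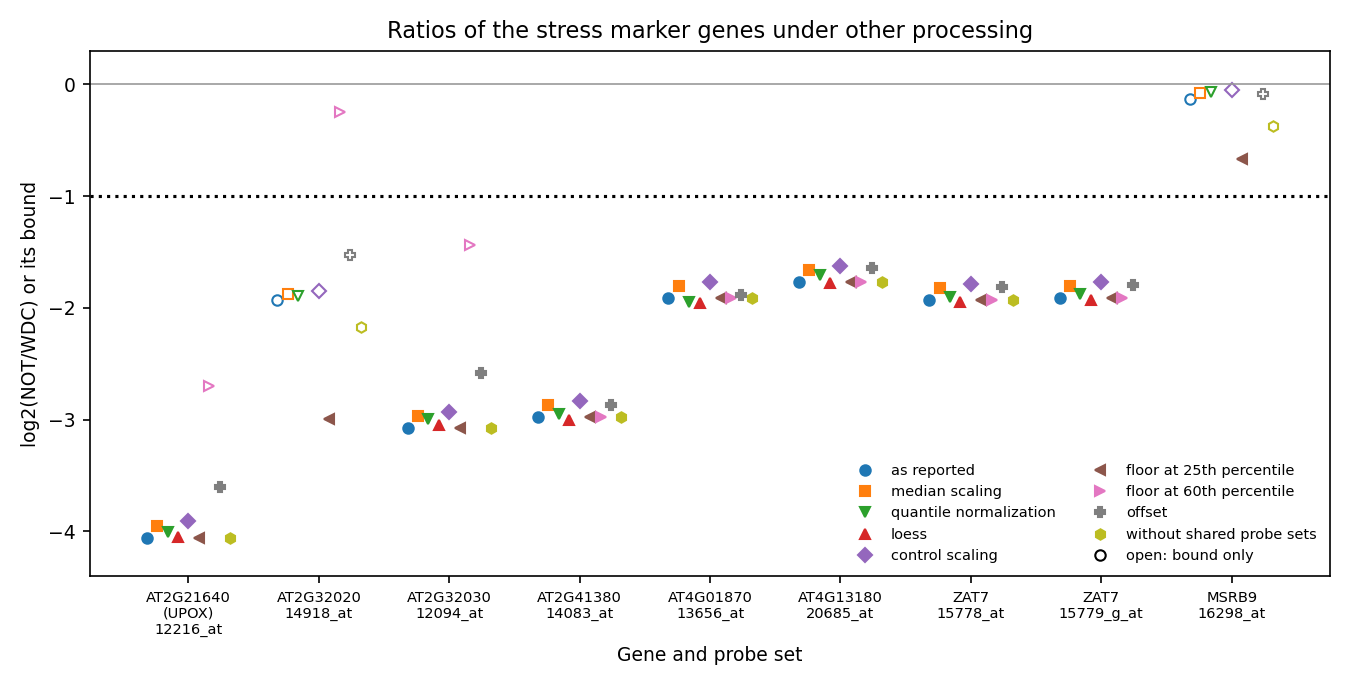
log2(NOT/WDC) of each probe set of the stress marker genes as reported and under 8 other settings, filled where both signals were above the floor and open where only a bound could be given; the dotted line is 2-fold lower. AT2G41380, AT4G01870, AT4G13180 and ZAT7 moved little, whereas UPOX, the GNAT pair and MSRB9, with NOT signals near or under the floor, moved with the floor and the offset.

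Leaving out 2% of values at each end, both arrays had a mean of 100.1. The values had, as judged from them, been scaled to a common trimmed mean. These equal means therefore cannot show whether the arrays were alike in signal. Before scaling, the labels give a mean background of 75.02 for NOT and 76.78 for WDC. The 9 spiked-in controls had a median log2 ratio of -0.14. If the arrays are set equal on these controls, all ratios rise by that amount, the median over all probe sets becomes 0.14, and the 6 measured genes are still at least 2-fold lower, with a median of -2.30. The signal at the 3′ end over that at the 5′ end was 1.24 in NOT and 1.19 in WDC for GAPDH, and 1.45 in NOT and 1.13 in WDC for ubiquitin. The signal at the 3′ end over that of the middle probe set went the other way, with 0.51 in NOT and 0.58 in WDC for GAPDH and 1.39 in NOT and 1.87 in WDC for ubiquitin. The part of RNA quality in the ratios was not tested.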

How the data were processed

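RNA of 1 pool per group was measured on 2 Affymetrix arrays of 8297 probe sets, with 1 colour (biotin), per the labels. In the deposited table each probe set has 1 linear intensity per array and no detection call, which the authors had scaled to a common trimmed mean, as judged from the values. The software that summarised probes was not given in the sources used here. Precision is limited by the number of arrays, and p-values were not computed.

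Probe sets were named through the platform annotation, with symbols and gene order from RefSeq (TAIR10.1). The build behind the array design was not given in the sources used here, so no coordinates are printed. Of 8247 probe sets other than controls, 3794 named 1 gene, 70 several and 4383 none here. The floor was the 40th percentile of both arrays' values, 12.5. Above it on both arrays log2(NOT/WDC) was taken without an offset, and above it on 1 array the brighter signal over the floor bounds the fold. A gene with several probe sets is given by the brightest.

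The stress marker genes and the related lists were chosen with earlier results of these data known. Genes named in the text are those with a probe set among the 8, the related lists, the 2 protein-coding neighbours on each side, the 4 of most similar ratio and those next in order. Apart from these, the genes under the other observations were picked by name after values of the lists had been seen. Lists of mitochondrial chaperones and of short-chain dehydrogenases held no named gene other than AT4G13180. Scripts ran in Python 3.11.15 with pandas 2.3.3, numpy 2.4.6, statsmodels 0.14.6, scipy 1.17.1 and matplotlib 3.10.9. The ratio and 2-fold counting steps were tested on simulated data, with changes planted only in probe sets well above the floor before the change. Bounds, values per gene and list counts were not part of that test. Alternatives were median, quantile, loess (span 0.4) and spiked-in control scaling, an offset of 6.25, a floor at the 25th or the 60th percentile, leaving out shared probe sets, other fold rules and the mean over probe sets.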

Additional observations from a re-analysis of the deposited data

How the results depend on the processing

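No paired analysis was possible because each group has 1 array. No ratio of a stress marker gene changed direction under any alternative that gave it a value. The 6 measured genes were each at least 2-fold lower in NOT under every scaling, the 25th percentile floor, the offset and without shared probe sets, and 4 of them were still measured with the 60th percentile floor, all at least 2-fold lower. Their median log2 ratio was -2.23 with the offset and -1.91 with the 60th percentile floor, which no longer measures UPOX and AT2G32030, the genes of the lowest ratios. Of the respiration genes 0 were at least 1.5-fold lower with that floor, since CYTC-2 dropped under it in NOT. Of the antioxidant genes 1 was at least 1.5-fold lower with loess (AT3G11630, at -0.59 against -0.54), and 0 were higher without shared probe sets, which removes GR, or by the 2-fold rule. Bounds move with the floor by construction: for AT2G32020 the bound was -2.17 without shared probe sets, where the floor fell to 10.6, and -0.25 with the 60th percentile floor. All probe sets at least 2-fold lower in NOT numbered 158, against 242 with the 25th percentile floor, 81 with the 60th and 123 with control scaling. Signal over background limits the ratios of UPOX, AT2G32030, AT2G32020 and MSRB9.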

Other observations

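Further genes of mitochondria and redox control, picked by their names after the values of the lists above had been seen, are given by their values. All 6 lay within 1.5-fold, as did all but 13.8% of the measured named genes. TO1 and TO2, thioredoxins of the mitochondrion, had 58.6 in NOT and 83.0 in WDC (log2 ratio -0.50) and 20.9 in NOT and 20.8 in WDC (0.01). ETFQO, which passes electrons from amino acid breakdown to ubiquinone, stood at 0.34, and LTA3, a subunit of mitochondrial pyruvate dehydrogenase, at 0.15 (from a shared probe set). CCS, the copper chaperone of superoxide dismutase, stood at -0.15 and NTRC, a thioredoxin reductase of the chloroplast, at -0.29.

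Of the 45 probe sets with a ratio as low as that of AT4G13180 or lower, 25 carry no gene name here, so the named genes do not cover that end of the arrays.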
